A study of Mus musculus with 11 samples.

Results

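The genes described are 10 collagens and secreted matrix proteins: Col1a1, Col1a2, Col3a1, Bgn, Dcn, Sparc, Fn1, Vcan, Spp1 and Thbs1, out of 22068 gene symbols measured. They were listed by symbol, but with earlier results of these data known, so the list is not independent of the values. RNA came from myeloid cells carrying CD11b, which were enriched by antibody and magnetic bead from tumours grown under the skin of mice and irradiated locally with 15 Gy 4 days before harvest. The hosts were C57BL/6 mice of 3 genotypes: wild type (WT, 3 libraries), TLR9-/- (TLR9KO, 4 libraries) and STAT3-/- (STAT3KO, written MxCre/Stat3flox in the labels, 4 libraries). All tumours were irradiated, so no unirradiated level was analysed here, and the age of the mice, the tumour line and whether WT mice carried MxCre are not stated. MxCre is driven by an interferon-inducible promoter that is active in many cell types, so the deletion is not restricted to myeloid cells. No label says that replicates are separate animals, and p-values here therefore reflect only how these libraries vary, which may be technical.

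The extracellular matrix is the protein mesh outside cells. Fibroblasts make most of its fibrillar collagens, whose chains wind into triple helices and are then cross-linked into fibres, and the small proteoglycans that bind those fibres. Macrophages and monocytes secrete a different set, with fibronectin, osteopontin, thrombospondin 1 and versican among them, which cells grip through integrins, CD44 and CD36. RNA of fibrillar collagens is usually taken as a sign of fibroblasts, and finding it in an enriched myeloid fraction raises the question of which cells it came from.

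Values are RPKM, reads scaled to transcript length and to the mapped reads of the library, so levels can be set side by side between genes. Differences are on the log2(RPKM + 1) scale, from limma across 10557 genes whose mean over the libraries reached 1 RPKM, and a gene rose or fell where its adjusted p is under 0.05. This scale understates changes of genes near 1 RPKM, such as the collagens in WT. Of the 10 genes, 9 passed that filter and Dcn did not. Col1a2, Col3a1 and Bgn, with WT means of 0.67, 0.40 and 0.98 RPKM, passed it only through the knockout libraries, where they were higher. They are among the rises counted next. In STAT3KO against WT 4 of the 9 rose and 2 fell, in TLR9KO against WT 4 rose and 1 fell, and in STAT3KO against TLR9KO 1 fell. Of all genes tested, 44.0% passed in STAT3KO against WT (29.2% higher, 14.8% lower), 30.6% in TLR9KO against WT (20.0% higher, 10.6% lower) and 22.8% in STAT3KO against TLR9KO (13.4% higher, 9.46% lower). Between STAT3KO and WT, 7 of the 9 genes had ranges without overlap (5 higher, 2 lower), where 47.7% of all genes tested had such ranges (30.8% higher, 16.9% lower). The same was so for 5 of the 9 in TLR9KO against WT (4 higher, 1 lower), against 36.1% (22.8% higher, 13.3% lower), and for 0 of the 9 in STAT3KO against TLR9KO, against 27.0%. Genes as a whole thus differed widely between the groups, and these counts, like those of the gene lists below, are to be read against those shares. With median-ratio scaling, the split of higher against lower calls went from 3083 and 1565 to 2167 and 2286 in STAT3KO against WT, from 2107 and 1122 to 1680 and 1544 in TLR9KO against WT, and from 1410 and 999 to 919 and 1189 in STAT3KO against TLR9KO. That scaling shifted the median log2 difference of all genes by -0.11 in STAT3KO against WT.

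The labels and the enrichment were checked first. Stat3 fell in STAT3KO (log2 -1.95 ± 0.09, limma adjusted p = 2.44e-06) and Tlr9 in TLR9KO (-2.19 ± 0.37, limma adjusted p = 0.00193), each against WT. Itgam, which encodes CD11b, was 177 to 328 RPKM over the 11 libraries, and Lyz2, the lysozyme of macrophages and neutrophils, 1746 to 6427 RPKM. Pigment cell RNA was also present: 8 of 8 melanocyte markers passed the filter, with sums from 478 to 1525 RPKM. The lowest sums were 478 RPKM in WT replicate 2 and 515 RPKM in TLR9KO replicate 3. TLR9KO replicate 1 stood apart from the other TLR9KO libraries in the collagens and in Spp1, and most results that rest on it are given with and without it. STAT3KO replicate 2 held the highest neutrophil transcripts, with S100a8 at 194 RPKM against 2.21 to 18.6 RPKM elsewhere.

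Measured per length, the order of the 10 genes differed between groups. In WT, Spp1 (581 ± 196 RPKM, SD, n = 3), Fn1 (478 ± 143 RPKM) and Thbs1 (271 ± 82.1 RPKM) were the most abundant. The WT ranges of Spp1 and Fn1 overlapped. Sparc followed at 48.0 ± 23.6 RPKM and Vcan at 15.1 ± 3.93 RPKM, and the collagens, Bgn and Dcn were all near or under 1 RPKM. In STAT3KO, Fn1 ranked below Spp1, Thbs1 and Sparc, at 74.6 ± 15.9 RPKM (n = 4), with a range that overlapped that of Sparc at 75.2 ± 16.9 RPKM, and Col1a1 at 9.47 ± 2.52 RPKM had a higher mean than Vcan at 5.64 ± 2.63 RPKM. In TLR9KO the order at the top was Spp1 (619 ± 612 RPKM, n = 4), Thbs1 (189 ± 76.9 RPKM) and Fn1 (180 ± 81.2 RPKM), with ranges that overlapped. Without TLR9KO replicate 1 the mean of Spp1 was 317 ± 108 RPKM (n = 3), that of Thbs1 156 ± 50.7 RPKM and that of Fn1 155 ± 77.1 RPKM.

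**Figure D1:**
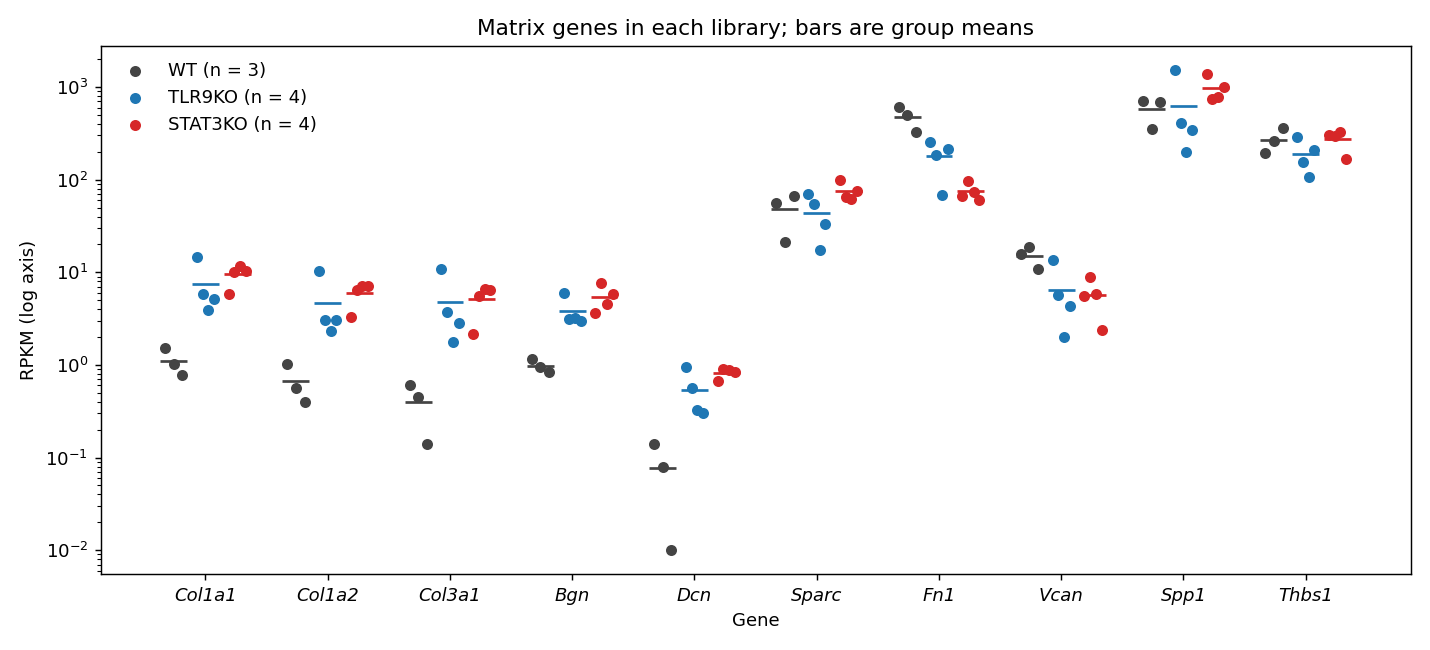
RPKM on a log axis for each of the 10 matrix genes in each library, with WT in dark grey (n = 3), TLR9KO in blue (n = 4) and STAT3KO in red (n = 4); short bars are group means. Collagens, Bgn and Dcn are lowest in the 3 WT libraries, while Fn1 is highest there, from 328 to 611 RPKM.

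Type I and type III collagen were higher in both knockouts than in WT. Col1a1, the alpha 1 chain of type I collagen, was 1.53, 1.02 and 0.78 RPKM in WT replicates 1 to 3, 14.8, 5.76, 3.88 and 5.20 RPKM in TLR9KO replicates 1 to 4, and 5.84, 10.0, 11.7 and 10.3 RPKM in STAT3KO replicates 1 to 4. Every knockout library was above every WT library, and the knockout groups overlapped each other. Col1a1 rose by log2 2.29 ± 0.35 in STAT3KO (limma adjusted p = 0.000496) and 1.85 ± 0.35 in TLR9KO (limma adjusted p = 0.00303). At the level of mean RPKM this was 8.53 times WT in STAT3KO and 6.68 times WT in TLR9KO (4.46 times without TLR9KO replicate 1). In bulk RNA of this kind, a change in the number of cells of a type cannot be told apart from a change in RNA per cell. Red cell markers also differed between these groups: 4 of 4 tested fell in both knockouts, with sums of 42.6 to 169 RPKM in WT, 2.72 to 49.6 RPKM in STAT3KO and 0.56 to 3.31 RPKM in TLR9KO. Their part in the results was not tested.

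Col1a2, the alpha 2 chain that joins the product of Col1a1 in the same triple helix, was 1.03, 0.57 and 0.40 RPKM in WT. It was 10.3, 3.03, 2.34 and 3.04 RPKM in TLR9KO and 3.26, 6.51, 7.13 and 7.05 RPKM in STAT3KO. Again no WT library reached a knockout library, and TLR9KO replicate 1 was the highest of all. Col1a2 rose by log2 2.04 ± 0.38 in STAT3KO (limma adjusted p = 0.00158) and 1.60 ± 0.38 in TLR9KO (limma adjusted p = 0.00941).

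Col3a1, the single chain of type III collagen found beside type I in soft tissue, was 0.61, 0.45 and 0.14 RPKM in WT. It was 10.8, 3.71, 1.79 and 2.87 RPKM in TLR9KO and 2.15, 5.52, 6.60 and 6.49 RPKM in STAT3KO, so all 8 knockout libraries were above WT. It rose by log2 2.08 ± 0.44 in STAT3KO (limma adjusted p = 0.0032) and 1.84 ± 0.44 in TLR9KO (limma adjusted p = 0.00982). The ratio of Col1a1 to Col1a2 RPKM stayed between 1.44 and 1.95 in the 11 libraries, while their levels differed by more than 10-fold between the lowest and highest library.

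The small leucine-rich proteoglycans moved the same way. Bgn, biglycan, which binds collagen fibres, was 1.17, 0.94 and 0.84 RPKM in WT, 5.92, 3.13, 3.24 and 2.95 RPKM in TLR9KO and 3.61, 7.61, 4.60 and 5.78 RPKM in STAT3KO. The knockouts did not overlap WT, and Bgn rose by log2 1.65 ± 0.23 in STAT3KO (limma adjusted p = 0.000284) and 1.24 ± 0.23 in TLR9KO (limma adjusted p = 0.00272). Dcn, decorin, its close relative, was 0.14, 0.08 and 0.01 RPKM in WT, 0.95, 0.57, 0.33 and 0.30 RPKM in TLR9KO and 0.67, 0.91, 0.89 and 0.84 RPKM in STAT3KO. Those WT levels stand for an estimated 20, 13 and 2 reads. In a fit of 18534 genes without the filter on low values, where 18.7% of genes rose in STAT3KO and 11.4% in TLR9KO, Dcn rose by log2 0.76 ± 0.13 in STAT3KO (limma adjusted p = 0.00188) and 0.50 ± 0.13 in TLR9KO (limma adjusted p = 0.0235).

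In STAT3KO against TLR9KO, none of Col1a1, Col1a2, Col3a1 and Bgn passed the test. The 95% intervals of the log2 difference were -0.27 to 1.15 for Col1a1, -0.33 to 1.22 for Col1a2, -0.65 to 1.14 for Col3a1 and -0.05 to 0.88 for Bgn. These do not show equal levels. Without TLR9KO replicate 1, Col1a1 (0.79 ± 0.21, limma adjusted p = 0.0257), Col1a2 (0.84 ± 0.23, limma adjusted p = 0.026) and Bgn (0.60 ± 0.18, limma adjusted p = 0.0384) were higher in STAT3KO. The rises of these genes against WT held when any 1 library was left out. Without TLR9KO replicate 1 the mean of Col1a2 in TLR9KO was 2.80 ± 0.40 RPKM (4.67 with it) and that of Col3a1 2.79 ± 0.96 RPKM (4.78 with it).

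**Figure D2:**
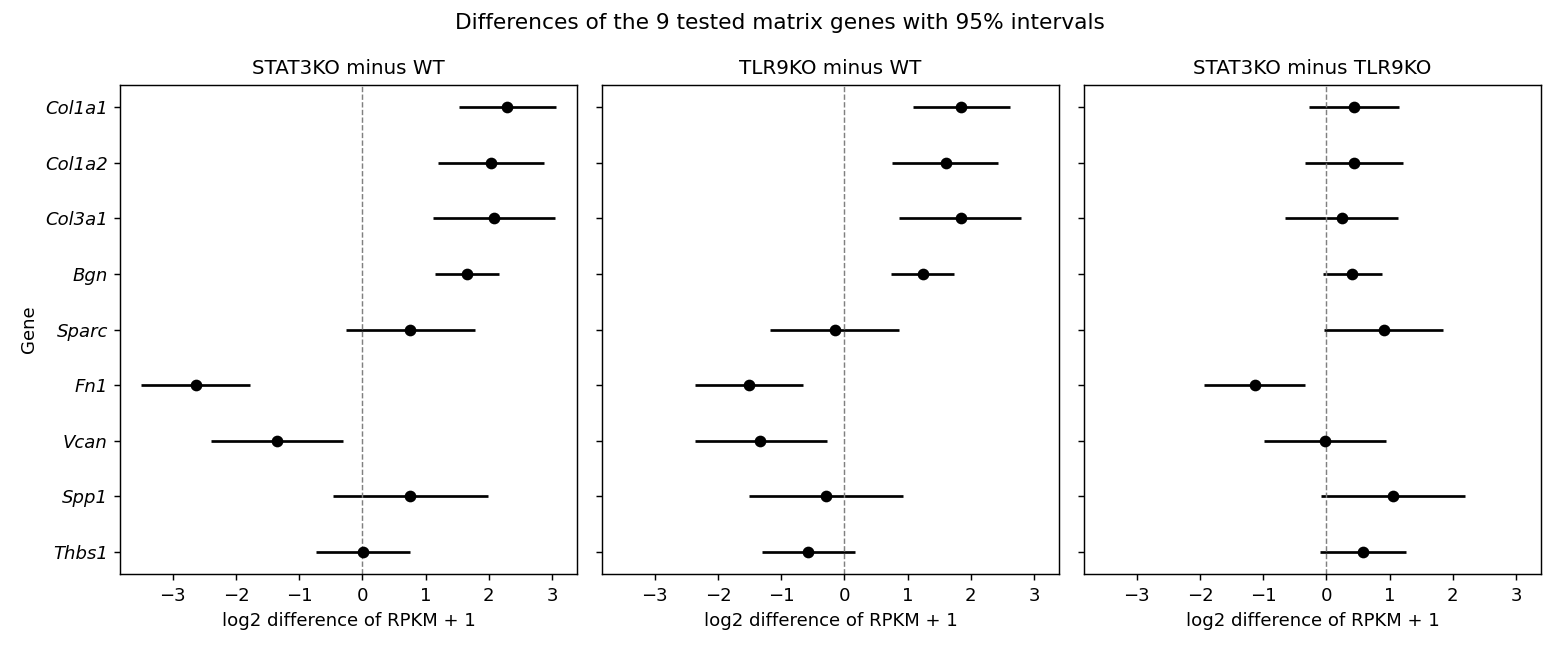
Log2 differences of RPKM + 1 (points) with 95% intervals (lines) for the 9 matrix genes tested, one panel for each comparison; the dashed line marks no difference. Col1a1, Col1a2, Col3a1 and Bgn lie above 0 and Fn1 below 0 in both comparisons with WT, and in STAT3KO minus TLR9KO only the interval of Fn1 leaves out 0.

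Promoters of genes that rose together are shown so that their letters can be compared. Of the 10 genes, 6 matched the RefSeq promoter table (assembly GRCm38.p6, whereas the values were made on mm9). Each line gives the 250 bases before the start site, 5′ to 3′ on the gene's strand, for Col1a2, Col3a1 and Bgn, which rose in both knockouts, and Vcan, which fell in STAT3KO. Capitals mark CCAAT (or ATTGG, its reverse complement) and TATAAA.
Col1a2, chr6:4505368-4505617, + strand: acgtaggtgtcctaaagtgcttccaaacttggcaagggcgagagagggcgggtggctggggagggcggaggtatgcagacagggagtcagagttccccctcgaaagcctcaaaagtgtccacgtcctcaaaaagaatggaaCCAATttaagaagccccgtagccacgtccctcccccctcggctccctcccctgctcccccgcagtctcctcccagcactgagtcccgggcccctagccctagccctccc
Col3a1, chr1:45311288-45311537, + strand: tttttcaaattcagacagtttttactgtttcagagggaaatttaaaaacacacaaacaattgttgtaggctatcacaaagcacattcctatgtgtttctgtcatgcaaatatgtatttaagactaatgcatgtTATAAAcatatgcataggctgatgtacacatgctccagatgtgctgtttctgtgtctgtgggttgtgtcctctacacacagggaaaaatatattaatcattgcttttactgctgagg
Bgn, chrX:73483351-73483600, + strand: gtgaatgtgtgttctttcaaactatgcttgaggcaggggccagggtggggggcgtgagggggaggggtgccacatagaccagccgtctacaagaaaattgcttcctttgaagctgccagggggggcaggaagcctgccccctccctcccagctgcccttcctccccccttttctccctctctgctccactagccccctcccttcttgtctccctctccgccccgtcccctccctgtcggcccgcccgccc
Vcan, chr13:89742513-89742762, - strand: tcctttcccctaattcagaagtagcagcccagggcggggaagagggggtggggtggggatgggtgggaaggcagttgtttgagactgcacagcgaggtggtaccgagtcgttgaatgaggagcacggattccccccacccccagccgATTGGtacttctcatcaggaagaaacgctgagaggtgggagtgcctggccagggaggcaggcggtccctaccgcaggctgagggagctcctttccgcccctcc
CCAAT was found on either strand in Col1a2, Vcan and Spp1, and in 33.8% of all 32851 promoter windows. TATAAA was found in Col3a1 and Spp1 and in 12.4% of all windows. The STAT motif TTCNNNGAA was in none of these windows of the 6 genes and in 7.0% of all windows, AP-1 (TGANTCA) in none and 6.7%, and the cyclic AMP element TGACGTCA in none and 1.5%. The motif matches describe letters only and were not linked to the differences.

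Fn1, fibronectin, the adhesive glycoprotein bound by the integrin made of Itga5 and Itgb1, went the opposite way. It was 611, 495 and 328 RPKM in WT, 257, 182, 67.6 and 214 RPKM in TLR9KO and 66.9, 97.2, 73.4 and 60.9 RPKM in STAT3KO. No knockout library reached WT, and TLR9KO replicate 3 lay among the STAT3KO libraries. Fn1 fell by log2 2.64 ± 0.39 in STAT3KO (limma adjusted p = 0.000434) and was lower by log2 -1.51 ± 0.39 in TLR9KO (limma adjusted p = 0.0141). The TLR9KO call was lost without WT replicate 1 (limma adjusted p = 0.0656). The ratio of mean RPKM to WT was 0.156 in STAT3KO and 0.377 in TLR9KO. Myeloid markers moved in both directions beside it. Of 12 macrophage markers tested, 8 rose and 1 fell in STAT3KO, but with median-ratio scaling 3 rose and 1 fell. Their summed RPKM was 4699 to 5785 in WT, 8114 to 11809 in STAT3KO and 5228 to 8296 in TLR9KO, where 1 rose (1 rose and 1 fell with the scaling). The marker that fell in STAT3KO was Mrc1, the mannose receptor (log2 -0.85 ± 0.21, limma adjusted p = 0.00676). In the same comparison Itgax, which encodes CD11c, fell (-2.19 ± 0.29, limma adjusted p = 0.000236) and Ly6c2, of inflammatory monocytes, rose (2.08 ± 0.50, limma adjusted p = 0.00613). Itgax was the 1 of 5 dendritic cell markers tested that passed, and the other 4 did not. Of 7 inflammatory monocyte markers tested, 3 rose and 0 fell (2 and 0 with median-ratio scaling), and 4 did not pass. Of 6 myeloid defining genes tested, 2 rose and 1 fell in STAT3KO (2 and 2 with median-ratio scaling). Tyrobp (log2 1.13 ± 0.19, limma adjusted p = 0.000852) and Lyz2 (1.15 ± 0.25, limma adjusted p = 0.00385) rose. Itgam fell (-0.47 ± 0.17, limma adjusted p = 0.0416), though not without WT replicate 3 (0.109). The part of these cell types in the Fn1 and Vcan differences was not tested.

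Fn1 was also lower in STAT3KO than in TLR9KO (log2 -1.13 ± 0.36, limma adjusted p = 0.0455), though TLR9KO replicate 3 lay within the STAT3KO range. When 1 library at a time was left out, that call held only without WT replicate 3 or TLR9KO replicate 3, and the limma adjusted p reached 0.118 without TLR9KO replicate 4. The ratio of Fn1 to the summed RPKM of Col1a1, Col1a2 and Col3a1 was 193 to 248 in WT, 7.18 to 19.3 in TLR9KO and 2.55 to 5.95 in STAT3KO, so that the 3 groups did not overlap. This ratio sets against each other genes whose opposite directions were known when it was formed, and it was not tested.

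Vcan, versican, a large chondroitin sulphate proteoglycan of inflammatory monocytes and stroma, was 15.8, 18.7 and 10.9 RPKM in WT. It was 13.7, 5.64, 2.00 and 4.35 RPKM in TLR9KO and 5.48, 8.82, 5.87 and 2.39 RPKM in STAT3KO. The STAT3KO libraries were all below WT, and Vcan fell there (log2 -1.35 ± 0.47, limma adjusted p = 0.0388). When 1 library at a time was left out, the call held only without WT replicate 3, TLR9KO replicate 1, TLR9KO replicate 3 or STAT3KO replicate 2, and the limma adjusted p reached 0.111 without WT replicate 2. In TLR9KO the difference of -1.33 ± 0.47 missed the threshold (limma adjusted p = 0.0546), with replicate 1 inside the WT range. It passed without TLR9KO replicate 1 (-1.74 ± 0.38, limma adjusted p = 0.00789), without STAT3KO replicate 4 (0.0456), with median-ratio scaling (-1.39, limma adjusted p = 0.0466) and with array weights (0.0184).

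Spp1, osteopontin, a secreted ligand of integrins and CD44, was the most abundant of the 10 genes by group mean in all 3 groups. It was 705, 356 and 683 RPKM in WT, 1527, 410, 198 and 342 RPKM in TLR9KO and 1386, 733, 787 and 989 RPKM in STAT3KO. Every STAT3KO library was above WT, yet the difference did not pass (log2 0.76 ± 0.56, interval -0.46 to 1.99, limma adjusted p = 0.295). TLR9KO spanned both other groups. Without TLR9KO replicate 1, Spp1 was higher in STAT3KO than in TLR9KO (1.64 ± 0.32, limma adjusted p = 0.00681), against 1.05 ± 0.52 (limma adjusted p = 0.162) with all libraries.

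Thbs1, thrombospondin 1, a matricellular protein that binds CD36 and CD47, was 196, 259 and 359 RPKM in WT, 286, 156, 106 and 207 RPKM in TLR9KO and 301, 299, 324 and 168 RPKM in STAT3KO. The 3 groups overlapped. The log2 differences were 0.01 in STAT3KO (interval -0.73 to 0.75) and -0.57 in TLR9KO (interval -1.31 to 0.17), and neither passed (limma adjusted p = 0.989 and 0.219). Platelets store thrombospondin 1, and the platelet genes Itga2b, Gp9 and Gp1ba were at most 0.18, 0.16 and 0.19 RPKM in any library. Of the other platelet markers, Ppbp was 38.0, 5.96 and 102 RPKM in WT, 54.7, 13.7, 4.65 and 33.8 RPKM in TLR9KO and 18.9, 10.5, 7.45 and 42.4 RPKM in STAT3KO, and Clec1b reached 1.53 RPKM in TLR9KO replicate 3. Gp5 was at most 0.05 RPKM. Treml1 was at most 0.17 RPKM in WT and 0.15 RPKM in TLR9KO, and 0.47, 0.24, 0.30 and 0.56 RPKM in STAT3KO. Of 6 platelet markers under 1 RPKM it was the 1 with every STAT3KO library above WT, against 10.9% of genes at such levels. The part of platelets in the level of Thbs1 was not tested. Pf4, platelet factor 4, which macrophages can also express, was 211 ± 107 RPKM in WT, 365 ± 246 RPKM in TLR9KO and 738 ± 176 RPKM in STAT3KO. It rose in STAT3KO (log2 1.91 ± 0.48, limma adjusted p = 0.00797), where Thbs1 did not pass, but not with the GC and length correction (0.054).

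Sparc, a collagen-binding glycoprotein made by many cell types, did not follow the collagens. It was 56.4, 21.4 and 66.3 RPKM in WT, 70.5, 55.1, 17.3 and 33.3 RPKM in TLR9KO and 98.8, 64.9, 61.1 and 76.2 RPKM in STAT3KO. The groups overlapped and no comparison passed (log2 0.76 ± 0.46 in STAT3KO, limma adjusted p = 0.208, and -0.15 ± 0.46 in TLR9KO, limma adjusted p = 0.831). The lowest values were in WT replicate 2 and TLR9KO replicate 3, the same libraries that had the lowest sums of melanocyte markers.

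Co-variation was described by correlating, over the 11 libraries, each gene's deviations from its group means of log2(RPKM + 1), so that differences between groups play no part. The points share library depth and cell composition. Col1a1, Col1a2 and Col3a1 correlated at 0.97 to 0.99 with each other, and Dcn at 0.90 to 0.93 with them. Without TLR9KO replicate 1 (n = 10) the collagens stayed at 0.95 to 0.97, while Dcn dropped to 0.68 to 0.77 and Bgn from 0.79 to 0.83 down to 0.55 to 0.65. Fn1 and Vcan correlated at 0.82, and at 0.78 without that library. Sparc and Spp1 formed another pair, at 0.86 and 0.95.

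**Figure D3:**
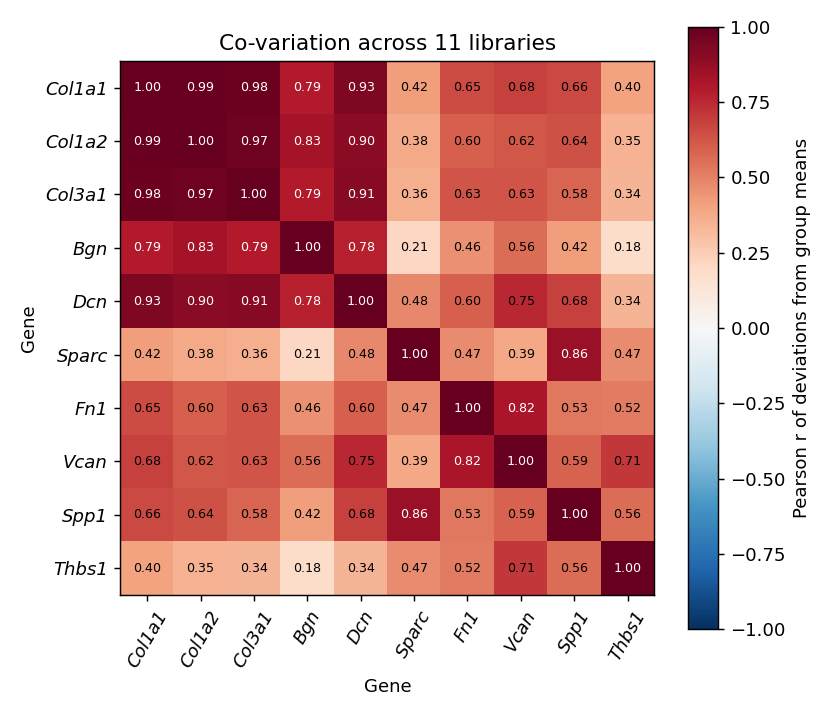
Pearson correlation between each pair of the 10 matrix genes over 11 libraries, from deviations of log2(RPKM + 1) from the group means, with red for positive values. The 3 collagens and Dcn form a block at 0.90 or above, Fn1 pairs with Vcan at 0.82 and Sparc with Spp1 at 0.86.

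Markers of other cell types were set against these deviations. The deviations of Sparc correlated at 0.93 with the mean of the 8 melanocyte markers (0.98 without TLR9KO replicate 1), and those of Spp1 at 0.66 (0.94 without it). Other lists also followed Sparc and Spp1. With fibroblast and mural, platelet and endothelial markers, Sparc correlated at 0.84, 0.82 and 0.77 (0.78, 0.76 and 0.68 without TLR9KO replicate 1). Spp1 correlated with these at 0.74, 0.79 and 0.75, each above its value with melanocyte markers, and at 0.60, 0.76 and 0.54 without that library. With macrophage markers Sparc was at -0.65 and Spp1 at -0.40. With melanocyte markers Col1a1, Col1a2 and Col3a1 were at 0.17 to 0.21 (0.03 to 0.11), and Fn1 at 0.35 (0.31). With fibroblast and mural markers the 3 collagens were at 0.49 to 0.51, and at 0.06 to 0.14 without TLR9KO replicate 1. Of those 15 markers, 11 had a mean under 1 RPKM, where log2(RPKM + 1) moves little. Their mean thus rests mostly on the other 4, Pdpn and Thy1 among them, and is a poor measure of fibroblast RNA. The same limit holds for platelet markers (6 of 8 under 1 RPKM) and endothelial markers (6 of 9). In WT the melanocyte marker sums ran from 478 to 1525 RPKM, in STAT3KO from 875 to 1350 RPKM and in TLR9KO from 515 to 1474 RPKM. By limma 0 of the 8 melanocyte markers passed in any comparison, and 0 had an unadjusted p under 0.05. The part of any of these cell types in the levels of Sparc and Spp1 was not tested.

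**Figure D4:**
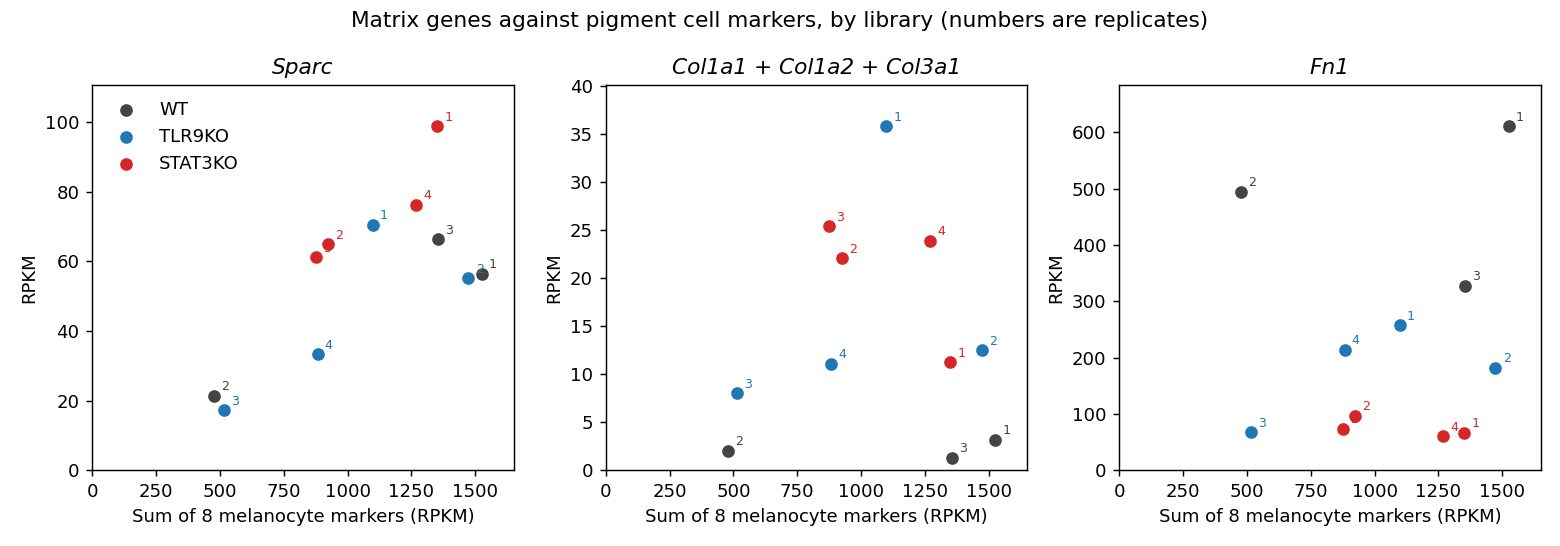
RPKM of Sparc (left), of Col1a1, Col1a2 and Col3a1 together (middle) and of Fn1 (right) against the summed RPKM of 8 melanocyte markers in the 11 libraries, coloured by group and numbered by replicate. Sparc is lowest in the 2 libraries with the lowest marker sums, WT replicate 2 and TLR9KO replicate 3, while the collagen sum is lowest in the 3 WT libraries, whose marker sums run from 478 to 1525 RPKM.

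Other genes made by fibroblasts were looked at below the filter, since most of them lay there. Of 15 other collagens in the files, 11 had a mean under 1 RPKM, and in 8 of these every STAT3KO library was above every WT library, where 10.9% of the 7977 genes at such levels were. For TLR9KO this held for 2 of the 11, against 6.63%. Postn, periostin, a matrix protein of activated fibroblasts, was 0.09 ± 0.04 RPKM in WT, 0.77 ± 0.67 RPKM in TLR9KO and 1.38 ± 0.58 RPKM in STAT3KO. Col5a2, a chain of the type V collagen that nucleates type I fibres, was 0.09 ± 0.03, 0.50 ± 0.28 and 0.83 ± 0.18 RPKM, and Fbln2, fibulin 2, 0.15 ± 0.02, 0.78 ± 0.55 and 1.17 ± 0.37 RPKM, in the same order. Lox, the enzyme that cross-links collagen, was 0.11 ± 0.02, 0.59 ± 0.33 and 0.90 ± 0.36 RPKM. Postn, Col5a2, Fbln2 and Lox were chosen after their values were seen. Postn and Fbln2 belong to 18 other matrix glycoproteins and proteoglycans under 1 RPKM. Every library was above WT for 10 of these 18 in STAT3KO and for 8 in TLR9KO. The rest overlapped WT, with Lum and Prelp among them in both knockouts.

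Of the 15 fibroblast and mural cell markers outside the matrix, 4 passed the filter. In TLR9KO 1 of the 4 fell, Tagln (log2 -0.31 ± 0.10, limma adjusted p = 0.0412), a call lost without WT replicate 3 (0.161). In STAT3KO 1 rose, also Tagln (0.30 ± 0.10, limma adjusted p = 0.0354), which missed the threshold with median-ratio scaling (0.105). The median log2 difference of the 4 was -0.18 in STAT3KO and -0.30 in TLR9KO, and Thy1 (-0.84 and -0.89) and Pdpn (-0.66 and -0.28) were negative in both without passing. Of the other 11, every library was above WT for 5 in STAT3KO and for 5 in TLR9KO, with Pdgfra, a receptor that marks fibroblasts, in both sets. Of all 7977 genes with a mean under 1 RPKM, 10.9% were so in STAT3KO and 6.63% in TLR9KO. Pdgfra was 0.01 RPKM in each WT library, from 0.04 to 0.08 RPKM in STAT3KO and from 0.02 to 0.14 RPKM in TLR9KO. For a 5 kb transcript, 0.01 RPKM is an estimated 1.5 to 2.7 reads. Tcf21 was at 0 in 10 of the 11 libraries. The summed RPKM of the 15 markers was 69.2 to 90.4 in WT, 33.0 to 158 in TLR9KO and 44.1 to 73.2 in STAT3KO, most of it Pdpn, which macrophages also express. Tagln, a smooth muscle and myofibroblast protein, was 1.32 ± 0.22 RPKM in WT, 0.87 ± 0.08 RPKM in TLR9KO and 1.86 ± 0.26 RPKM in STAT3KO, and was higher in STAT3KO than in TLR9KO (log2 0.61 ± 0.10, limma adjusted p = 0.00179). Of 3 endothelial markers tested, Pecam1 fell in STAT3KO (log2 -1.27 ± 0.32, limma adjusted p = 0.00836). Of 6 endothelial markers under 1 RPKM, 2 had every STAT3KO library above WT, Cdh5 and Emcn, against the same 10.9%. The part of fibroblast RNA in the collagen differences was not tested.

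**Figure D5:**
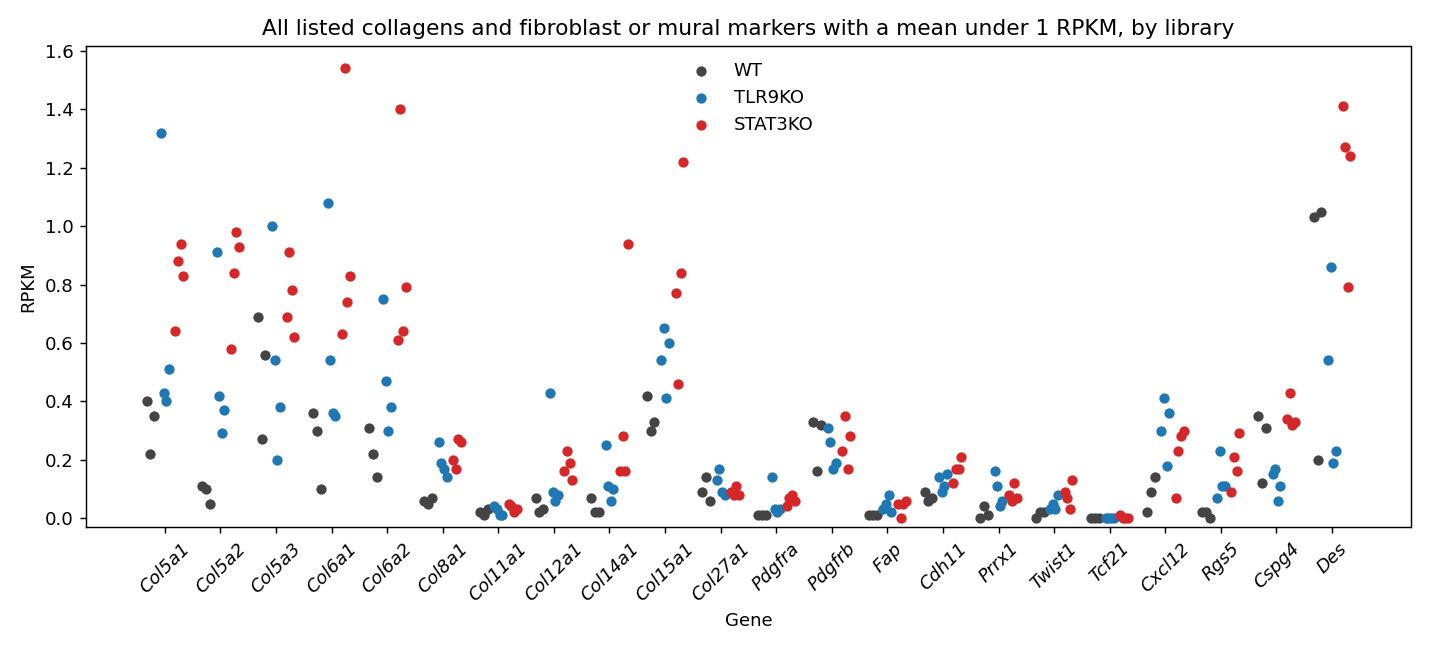
RPKM in each library for all 22 listed collagens and fibroblast or mural markers with a mean under 1 RPKM, with WT in dark grey, TLR9KO in blue and STAT3KO in red. In Col5a2 the 3 WT points lie at 0.11 RPKM or below and all 8 knockout points above them, whereas Pdgfrb, Col27a1 and Col11a1 overlap between groups.

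Genes that process and cross-link collagen changed in both directions. Of 15 tested, 2 rose and 2 fell in STAT3KO (1 rose and 2 fell with median-ratio scaling) and 3 fell in TLR9KO (4 with the scaling), with median log2 differences of -0.04 and -0.36 (0.09 and 0.04 for all genes). The 3 under the filter, Lox, Loxl1 and Adamts2, had every library of both knockouts above WT. Of all genes under 1 RPKM, 10.9% were so in STAT3KO and 6.63% in TLR9KO. In the fit without the filter, 5 of 18 rose and 1 fell in STAT3KO, and 1 rose and 3 fell in TLR9KO. Plod3, a lysyl hydroxylase, fell in STAT3KO (log2 -0.77 ± 0.10, limma adjusted p = 0.000239) and in TLR9KO (-0.53 ± 0.10, limma adjusted p = 0.00364), the latter lost with the GC and length correction (limma adjusted p = 0.114). P4hb, a subunit of prolyl hydroxylase, and Plod1 fell in TLR9KO (-0.86 ± 0.23 and -0.63 ± 0.15). The P4hb call was lost without WT replicate 1 (limma adjusted p = 0.0737), as was that of Plod1 (0.0505). Crtap, a partner of prolyl 3-hydroxylase, was higher in STAT3KO than in TLR9KO (0.73 ± 0.11, limma adjusted p = 0.00161).

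Among the other matrix collagens and glycoproteins above the filter, 2 of 4 collagens rose in STAT3KO, and 0 passed in TLR9KO by limma, with 0 at an unadjusted p under 0.05. Col18a1, whose product carries endostatin, rose in STAT3KO (log2 0.74 ± 0.19, limma adjusted p = 0.00902), and Col4a1, of basement membranes, did so too (0.77 ± 0.28, limma adjusted p = 0.0436) but not without WT replicate 2 (0.173) or with median-ratio scaling (0.0648). Of 16 glycoproteins and proteoglycans, 1 rose and 3 fell in STAT3KO and 1 fell in TLR9KO (4 and 2 fell, and 0 rose in either, with median-ratio scaling). Tgfbi, a TGF-beta-induced adhesive protein that macrophages make in quantity, fell in STAT3KO (-0.97 ± 0.19, limma adjusted p = 0.00223). Emilin2, an elastin-associated glycoprotein, fell in STAT3KO (-0.86 ± 0.18) and in TLR9KO (-0.69 ± 0.18). The TLR9KO call of Emilin2 was lost with the GC and length correction (limma adjusted p = 0.0995) and without WT replicate 1 (0.0512). Lamc1, a laminin chain, fell in STAT3KO (-1.15 ± 0.33), but with WT replicate 3 left out it missed the threshold (limma adjusted p = 0.061). Ctgf, connective tissue growth factor, was higher in STAT3KO than in TLR9KO (0.68 ± 0.18), though not without TLR9KO replicate 4 (limma adjusted p = 0.056).

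Of 17 matrix receptors tested, 5 rose and 4 fell in STAT3KO (2 and 4 with median-ratio scaling) and 1 rose and 3 fell in TLR9KO (0 and 3 with the scaling), with medians of -0.11 and -0.09. Of all genes tested, 29.2% rose and 14.8% fell in STAT3KO, and 20.0% rose and 10.6% fell in TLR9KO. Itga5, the alpha chain of the fibronectin receptor, was 70.2 ± 10.4 RPKM in WT, 40.0 ± 8.11 RPKM in TLR9KO and 49.9 ± 1.96 RPKM in STAT3KO. It fell in TLR9KO (log2 -0.81 ± 0.15, limma adjusted p = 0.00304) and in STAT3KO (-0.48 ± 0.15, limma adjusted p = 0.026), the latter lost without WT replicate 3 (0.106) and with the GC and length correction (0.121). Cd36, a receptor for thrombospondin 1 and oxidised lipids, was 90.0 ± 27.3 RPKM in WT, 86.1 ± 42.2 RPKM in TLR9KO and 250 ± 55.5 RPKM in STAT3KO, and rose in STAT3KO (1.47 ± 0.32, limma adjusted p = 0.00361). Itgb5, a chain of a vitronectin receptor, was higher in STAT3KO than in TLR9KO (1.15 ± 0.18, limma adjusted p = 0.00195). Sdc3, a heparan sulphate proteoglycan of the cell surface, fell in STAT3KO (-0.59 ± 0.12), but not with the GC and length correction (limma adjusted p = 0.095).

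TGF-beta is the main inducer of collagen genes in fibroblasts. Of 10 genes of its pathway tested, 2 rose and 1 fell in STAT3KO (1 and 1 with median-ratio scaling) and 1 rose and 3 fell in TLR9KO, with medians of 0.09 and -0.10. Tgfb1, the ligand, was 325 ± 14.6 RPKM in WT, 176 ± 13.0 RPKM in TLR9KO and 171 ± 11.4 RPKM in STAT3KO. It fell in both knockouts (log2 -0.88 ± 0.09 in TLR9KO, limma adjusted p = 0.000201, and -0.92 ± 0.09 in STAT3KO, limma adjusted p = 3.69e-05). The part of TGF-beta in the collagen differences was not tested. Smad7, an inhibitor that the pathway induces, was 1.68 ± 0.31, 3.64 ± 1.02 and 2.92 ± 0.36 RPKM in WT, TLR9KO and STAT3KO. It rose in TLR9KO (log2 0.77 ± 0.16, limma adjusted p = 0.00545) and in STAT3KO (0.55 ± 0.16, limma adjusted p = 0.0188), the latter lost without WT replicate 1 (0.0737).

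Outside the 10 genes, those whose deviations were most like those of Col1a1 over the 11 libraries were Phactr4 (0.91), Fstl1 (0.91), Itgam (0.89), Il1rap (0.89) and Pigm (0.86). For Fn1 they were Cd163, a scavenger receptor of macrophages (0.96), 9430020K01Rik (0.94), Dnmbp (0.94), Slc7a1 (0.92) and 6430548M08Rik (0.91). These are the highest of all genes tested, so high values are to be looked for by the choice alone. They were not computed without TLR9KO replicate 1, which held the highest Col1a1 (14.8 RPKM), Itgam (328 RPKM) and Cd163 (10.6 RPKM) of any library.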

How the data were processed

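Gene expression was deposited as 1 table per library. Per the file headers the authors gave RPKM values; for TLR9KO replicate 4 no unit stands in the header, and RPKM was taken from the range of the values. Tools listed in the submitters' processing notes are Bowtie 0.12.7, TopHat 1.3.1, CASAVA 1.7 and Partek, and the build is mm9. Annotation, read totals and strand are not stated. Depth, estimated from the steps of microRNA genes (76.2% to 100.0% of values within 0.15 of a whole read), was 30.0 to 53.45 M reads and was used for description only, since multiples of a depth also give whole reads.

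Values were analysed as log2(RPKM + 1) for genes whose mean reached 1 RPKM. A model of the 3 group means over all 11 libraries was fitted with limma 3.58.1 (eBayes with trend) in R 4.3.3, tested two-sided and adjusted by Benjamini-Hochberg over all genes tested; ± beside log2 values is the moderated standard error, and beside RPKM the SD. The fit was tested on simulated data. Alternatives were a pseudocount of 0.1, no filter, median-ratio scaling, correction for GC content and length (GENCODE M21, 98.8% of genes matched), array weights, a replicate block and leaving out each library. Counts under 1 RPKM, list counts with scaling, and correlations and means without TLR9KO replicate 1 were added after seeing the data. Plots used matplotlib 3.10.9. Members and lists were chosen with earlier results of these data known. All 10 members are named; from each other list, up to 4 called genes without overlap between groups and with the smallest p are named (1 such gene is not reported here), and for Col1a1 and Fn1 the 5 genes with the highest correlation of deviations.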

Additional observations from a re-analysis of the deposited data

Results flagged for a closer look

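In a group of 4 libraries, 1 library was far from the other 3 by Dixon's criterion (the gap to the nearest library over the range) in 5 of 20 cases. The criterion gives about 1 in 20 for independent, normally distributed values. These RPKM values co-vary between genes, so the cases are not independent and cannot be set against that rate. TLR9KO replicate 1 was high for Col1a2 (10.26 RPKM), Bgn (5.92 RPKM) and Spp1 (1527.32 RPKM). STAT3KO replicate 1 was low for Col1a2 (3.26 RPKM), and STAT3KO replicate 4 was low for Thbs1 (167.59 RPKM).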

How the results depend on the processing

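The rises of Col1a1, Col1a2, Col3a1 and Bgn against WT and the fall of Fn1 in STAT3KO kept direction and call in all 17 alternatives. Of the matrix genes, 6 passed in STAT3KO and 5 in TLR9KO against WT, with 5 to 6 and 4 to 6 when 1 library was left out. In STAT3KO against TLR9KO 1 passed, 0 without the filter on low values (limma, 2 at unadjusted p under 0.05), 3 with array weights, and 0 to 4 with 1 library left out. Genes past the threshold in TLR9KO against WT were 3229, 1649 with the GC and length correction, and 1989 to 3595 with 1 library left out (1989 without WT replicate 1). In STAT3KO against TLR9KO they were 2409, 3807 with array weights, and 1581 to 2709 with 1 left out (1581 without TLR9KO replicate 4); for STAT3KO against WT the range was 3673 to 4878. Over all genes tested, log2 differences correlated with the GC content of the transcript, at Spearman -0.552 in TLR9KO against WT. The values were -0.244 in STAT3KO against WT and 0.299 in STAT3KO against TLR9KO. The cause of this trend and of the changes in these counts was not tested. Signs changed only for differences that had not passed: Thbs1 in STAT3KO against WT was -0.126 with median-ratio scaling, -0.009 with array weights and -0.203 to 0.231 with 1 library left out. Vcan in STAT3KO against TLR9KO was 0.08 with the GC and length correction and -0.376 to 0.388 with 1 left out. With 1 left out, Col3a1 in that comparison ranged from -0.033 to 0.658, and in TLR9KO against WT Sparc ranged from -0.642 to 0.223 and Spp1 from -0.872 to 0.108. The Vcan call in STAT3KO was lost without the filter (limma adjusted p = 0.0745), as was that of Fn1 in STAT3KO against TLR9KO (0.0845). The replicate numbers did not pair the libraries: same-numbered libraries correlated at -0.29 to 0.49, and not every library correlated best with its own number. With the replicate block 4074, 2662 and 1879 genes passed in STAT3KO against WT, TLR9KO against WT and STAT3KO against TLR9KO, and no call of the 9 matrix genes changed. The collagens in WT, near or under 1 RPKM, rest on an estimated 29 to 272 reads each, and Dcn on 2 to 20, which limits their folds.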
